A study of Mus musculus with 6 samples.

Results

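The mitochondrial chaperones and quality-control proteases are described here as 10 nuclear genes: the matrix chaperones Hspd1, Hspe1 and Hspa9, the matrix proteases Lonp1, Clpp and Clpx, the inner-membrane proteases Afg3l2, Spg7 and Yme1l1, and the intermembrane-space protease Htra2. They were taken by symbol from the deposited gene table, where each symbol stood on 1 row. All 10 of 10 were present and all 10 reached the level for testing, a mean of at least 1 FPKM, among 9907 tested genes of 52550 listed. FPKM divide the fragments of a gene by its transcript length and by the library total. The RNA was from left ventricles of 12 months old C57BL/6J mice. The labels name 3 libraries as PGC1alpha overexpressed (PKI) and 3 as wild-type (WT). PGC-1α coactivates the transcription of genes by which cells make mitochondria, and the comparison asks how its labelled overexpression goes with the ventricular transcriptome at this age. The sources used here do not name the promoter behind the overexpression or say that each library came from its own animal, so the p-values rest on a spread between libraries that may be technical.

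Most mitochondrial proteins are made in the cytosol, enter the organelle unfolded and must be folded inside it. Hspa9 pulls precursors into the matrix and helps to fold them, and Hspd1 with its lid Hspe1 forms the chaperonin chamber in which many of them finish folding. Damaged or surplus proteins are cut by ATP-driven proteases, Lonp1 and the Clpx-Clpp complex in the matrix and the Afg3l2-Spg7 and Yme1l1 complexes in the inner membrane. When unfolded protein builds up in mitochondria, mammalian cells can raise chaperone and protease genes through transcription factors that include ATF4, ATF5 and CHOP, a programme known as the mitochondrial unfolded protein response. Heart muscle cells are packed with mitochondria, on which they depend for ATP.

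Hspd1 and Hspe1 lie head to head on chromosome 1 and are known to share a promoter, so part of the sequence between them is shown. RefSeq starts of Hspd1 and Hspe1 (GRCm38) have 215 bases between them, at positions 55087932 on the minus strand and 55088148 on the plus strand, and a further Hspd1 start lies at 55088243. Lonp1, on the minus strand of chromosome 17 at 56614297 to 56626887 in GENCODE M21 (GRCm38), is shown because its RNA differed most between the groups. The first sequence is the 30 bases of the plus strand at chr1:55088053-55088082 around a heat shock element, in capitals, which starts 84 bases before the Hspe1 start and lies in an annotated Hspd1 exon. The second is the 250 bases before the RefSeq Lonp1 start, at chr17:56626904-56627153 on the minus strand.
Hspe1 and Hspd1: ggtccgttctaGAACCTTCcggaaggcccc
Lonp1: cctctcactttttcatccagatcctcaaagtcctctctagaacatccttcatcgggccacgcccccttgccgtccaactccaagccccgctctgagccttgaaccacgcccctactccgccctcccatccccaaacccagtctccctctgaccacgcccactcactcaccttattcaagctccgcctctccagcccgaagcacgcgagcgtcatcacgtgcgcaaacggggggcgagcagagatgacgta

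RefSeq promoter windows of 250 bases before to 50 bases after the start (GRCm38.p6) were found for 7 of the 10 members, 8 windows in all, and 5 motifs were searched on both strands. The HSF1 heat shock element, GAANNTTC, was in the windows of 2 members, Hspd1 and Hspe1, which overlap and hold the same copy, against 7.86% of all 32851 promoter windows. The NRF-1 motif, GCGCA followed by any base and GCGC, was in windows of 2 members, Spg7 and the further Hspd1 start, against 4.60% of all windows. The ATF4 and CHOP element TGATGNAA (3.97% of all windows), the GABP motif CCGGAAGT (3.89%) and the ERR motif TCAAGGTCA (0.423%) were in 0 of the 8 member windows. The Lonp1 window held 0 of the 5 motifs. No match of one motif shares bases with a match of another in these windows. These matches describe letters in a window and do not show binding.

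Ppargc1a, which encodes PGC-1α, was listed at 11.6, 11.8 and 11.4 FPKM in the libraries labelled PKI, against 14.2, 12.8 and 12.4 FPKM in WT. The libraries labelled PKI were all lower, which goes against their label (log2 change −0.16, and −0.44 after the scaling described next; exact two-sided permutation p = 0.1, the smallest that 3 against 3 allows), so directions below are those of the labels. Over the 9907 tested genes the log2 change had a median of 0.21, and changes are also given after median-of-ratios scaling, which brought that median to −0.02 with size factors of 1.09 to 1.12 in libraries labelled PKI and 0.892 to 0.915 in WT. The depth of the libraries is unknown, since the table holds FPKM only. FPKM added up to 708058 to 726064 in libraries labelled PKI and 747154 to 767757 in WT, of which 78.0% to 78.2% and 81.8% to 82.3% were transcripts of the mitochondrial genome and their nuclear copies.

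Lonp1, Hspe1 and Afg3l2 were higher in the libraries labelled PKI as deposited, and the other 7 members were not called in either direction. At an adjusted p under 0.05 (limma on log2(FPKM + 1), Benjamini-Hochberg over all tested genes) 3 of 10 members were higher and 0 lower, against 36.4% of all tested genes higher and 2.96% lower. At an unadjusted p under 0.05, 0 members were lower as well. The median log2 change of the members was 0.06, below that of all tested genes. After scaling, Lonp1 was still higher and Hspa9 and Clpx were lower, which is 1 of 10 higher against 7.82% of all genes and 2 of 10 lower against 9.18%. The median after scaling was −0.22. A share this close to the background is no result about the members as a group. The scaling turned the sign of 4 members and moved 4 across the threshold, so each member is given with both.

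**Figure D1:**
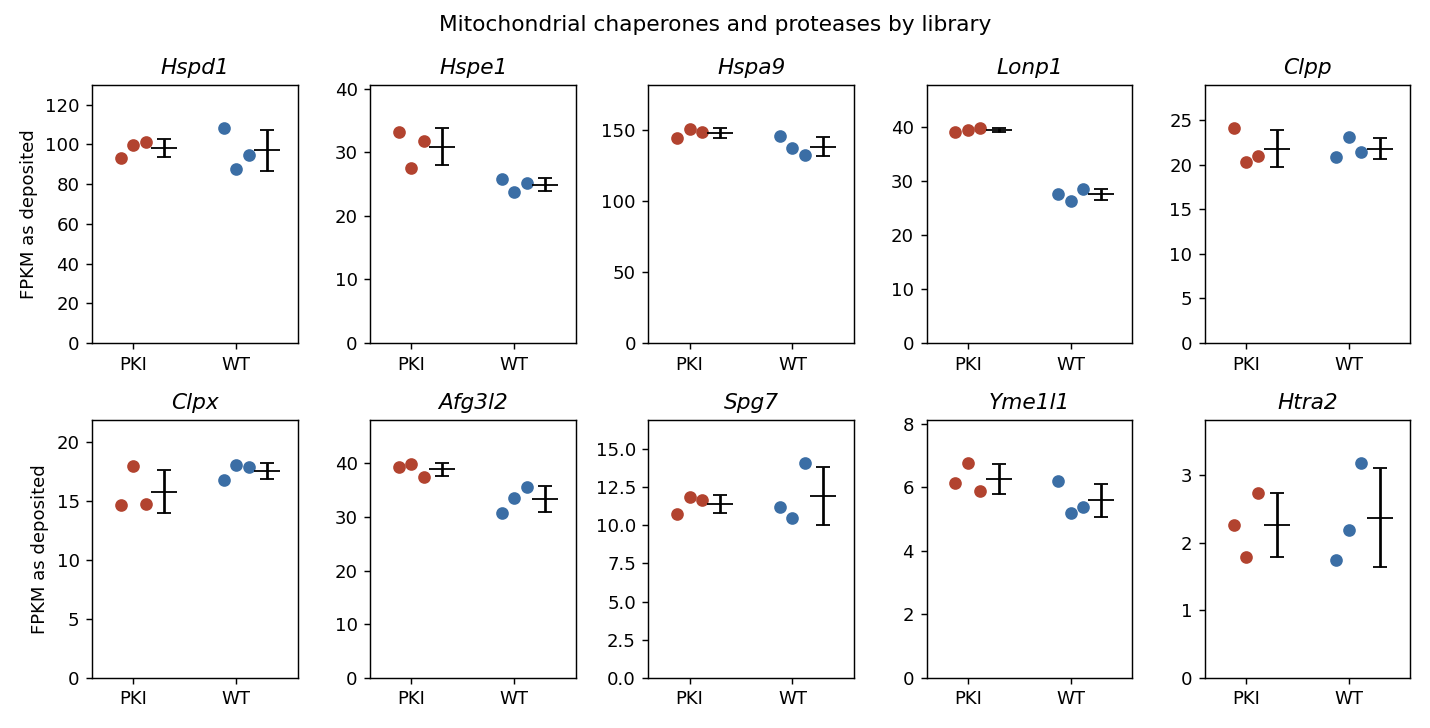
FPKM as deposited (vertical axis, from 0) of each of the 10 members in the 3 libraries labelled PKI (red) and the 3 WT libraries (blue); the bar beside the points is the mean with 1 SD. The Lonp1, Hspe1 and Afg3l2 points of the libraries labelled PKI all lie above the WT points, and the other 7 panels overlap.

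The matrix chaperones come first. Hspe1, the lid of the chaperonin, was at 33.3, 27.6 and 31.9 FPKM in libraries labelled PKI, against 25.8, 23.8 and 25.2 FPKM in WT. All libraries labelled PKI were above all WT libraries, with the lowest at 27.6. Hspe1 thus averaged 30.9 ± 2.95 FPKM in libraries labelled PKI and 24.9 ± 1.06 FPKM in WT (SD, n = 3 each), 1.24-fold higher (log2 change 0.30, SE 0.08, limma adjusted p = 0.0292). After scaling the log2 change was 0.01 (SE 0.09, limma adjusted p = 0.965), with a 95% interval of −0.20 to 0.21. The call as deposited was lost without PKI replicate 1 (adjusted p = 0.0857), PKI replicate 3 (0.0883), WT replicate 2 (0.0813) or WT replicate 3 (0.0712).

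Hspd1, the barrel of the chaperonin, was at 93.2, 99.9 and 101 FPKM in libraries labelled PKI, against 108, 87.8 and 94.9 FPKM in WT. The groups overlapped, with WT replicate 1 the highest of all and WT replicate 2 the lowest. Its log2 change was 0.02, with a 95% interval of −0.18 to 0.22 (limma adjusted p = 0.844), and −0.27 after scaling (SE 0.08, limma adjusted p = 0.0628, and 0.0421 without WT replicate 2). A pseudogene, Hspd1-ps3, was listed at a mean of 5.49 FPKM, 5.62% of the Hspd1 value, and the division of reads between the pair is unknown. Adding its values to those of Hspd1 left Hspd1 uncalled. Hspd1 and Hspe1 also share 112 exon bases on opposite strands, and the library kit does not mark strand, so reads there cannot be told apart.

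Hspa9, the mitochondrial HSP70, had the highest level of the 10, at 144, 151 and 149 FPKM in libraries labelled PKI, against 146, 137 and 132 FPKM in WT. Only PKI replicate 1 lay within the WT range. It averaged 148 ± 3.52 FPKM in libraries labelled PKI and 139 ± 6.83 FPKM in WT (SD, n = 3 each), a log2 change of 0.10 (SE 0.06, limma adjusted p = 0.198). After scaling it was lower, with a log2 change of −0.20 (SE 0.05, limma adjusted p = 0.0447), a call lost without any 1 of the 6 libraries (adjusted p from 0.0810 to 0.133).

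Among the matrix proteases, Lonp1 differed most. This ATP-driven serine protease degrades oxidised and misfolded matrix proteins and takes part in the upkeep of mitochondrial DNA. It was at 39.0, 39.4 and 39.9 FPKM in libraries labelled PKI, against 27.6, 26.4 and 28.5 FPKM in WT. The libraries labelled PKI lay within 1 FPKM of each other, and the highest WT library lay well below them. Lonp1 averaged 39.4 ± 0.407 FPKM in libraries labelled PKI and 27.5 ± 1.07 FPKM in WT (SD, n = 3 each), 1.43-fold higher (log2 change 0.50, SE 0.06, 95% interval 0.37 to 0.64, limma adjusted p = 0.00139). This was 0.30 above the median change of all tested genes, and 88.2% of tested genes had a smaller change. By p it stood at rank 295 of 9907 tested genes. After scaling the log2 change was 0.21 (SE 0.06, limma adjusted p = 0.0481), and that call was lost without any 1 of the 6 libraries (adjusted p from 0.0713 to 0.156), while the call as deposited held without each of them (log2 change 0.48 to 0.53).

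Clpp is the proteolytic chamber and Clpx the unfolding ring of the other soluble matrix protease. Clpp was at 24.1, 20.4 and 21.0 FPKM in libraries labelled PKI, against 20.9, 23.1 and 21.5 FPKM in WT. Both groups averaged 21.8 FPKM (SD 2.03 in libraries labelled PKI and 1.15 in WT, n = 3 each), with a log2 change of −0.0016 and a 95% interval of −0.19 to 0.19 (limma adjusted p = 0.989). After scaling it was −0.29 (limma adjusted p = 0.0605, and 0.0428 without PKI replicate 1), and all 3 scaled values of the libraries labelled PKI lay below those of WT.

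Clpx was at 14.7, 18.0 and 14.8 FPKM in libraries labelled PKI, against 16.8, 18.0 and 17.9 FPKM in WT. PKI replicates 1 and 3 lay below all WT libraries and PKI replicate 2 lay among them. The log2 change was −0.15 (SE 0.09, limma adjusted p = 0.211), and −0.24 without PKI replicate 2 (limma adjusted p = 0.0440). After scaling Clpx was lower, with a log2 change of −0.43 (SE 0.09, 95% interval −0.63 to −0.23, limma adjusted p = 0.0164). The call after scaling held without PKI replicate 2 (0.0106) and without WT replicate 1 (0.0233), and was lost without each of the other 4 libraries (highest adjusted p 0.0660). The log2 change of Clpx was negative under all 18 settings tried, and as deposited it was 0.36 below the median change of all genes.

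In the inner membrane, Afg3l2 and Spg7 are subunits of the protease that faces the matrix, and Afg3l2 can also work without Spg7. Afg3l2 was at 39.3, 39.9 and 37.5 FPKM in libraries labelled PKI, against 30.8, 33.6 and 35.6 FPKM in WT. All libraries labelled PKI were above all WT libraries, and the nearest were PKI replicate 3 and WT replicate 3. It averaged 38.9 ± 1.24 FPKM in libraries labelled PKI and 33.3 ± 2.39 FPKM in WT (SD, n = 3 each), 1.17-fold higher (log2 change 0.22, SE 0.07, limma adjusted p = 0.0442), which was 0.01 above the median change of all genes. After scaling it was −0.07 (limma adjusted p = 0.559). The call as deposited was lost without any 1 library other than WT replicate 3 (adjusted p from 0.0758 to 0.108).

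Spg7, or paraplegin, was at 10.7, 11.9 and 11.7 FPKM in libraries labelled PKI, against 11.2, 10.5 and 14.1 FPKM in WT. The values overlapped, with WT replicate 3 above all others. Its log2 change was −0.05, with a 95% interval of −0.31 to 0.21 (limma adjusted p = 0.724), and −0.33 after scaling (limma adjusted p = 0.0978). Yme1l1, the inner-membrane protease that faces the intermembrane space, was at 6.13, 6.77 and 5.88 FPKM in libraries labelled PKI, against 6.19, 5.20 and 5.37 FPKM in WT. WT replicate 1 reached into the range of the libraries labelled PKI. The log2 change was 0.14, with a 95% interval of −0.06 to 0.34 (limma adjusted p = 0.213), and −0.11 after scaling (limma adjusted p = 0.381).

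Htra2, a serine protease of the intermembrane space, had the lowest level of the 10 and the widest spread. It was at 2.26, 1.78 and 2.74 FPKM in libraries labelled PKI, against 1.74, 2.19 and 3.19 FPKM in WT. The groups overlapped throughout. The log2 change was −0.04, with a 95% interval of −0.45 to 0.37 (limma adjusted p = 0.874), the widest interval of the 10. After scaling it was −0.24 (limma adjusted p = 0.417). Of its 2946 annotated exon bases, 753 also belong to Aup1 and 535 to Loxl3 on the opposite strand, and reads there cannot be told apart.

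**Figure D2:**
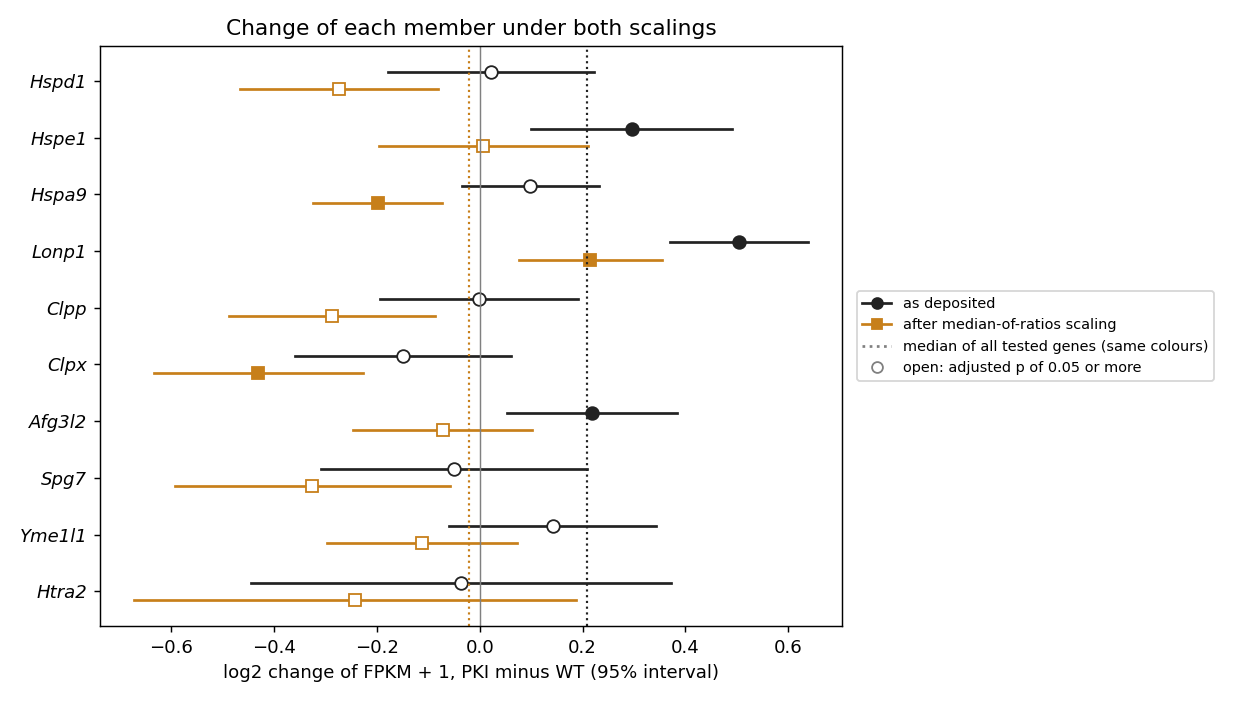
Log2 change of FPKM + 1 (PKI minus WT, horizontal axis) with its 95% interval for each of the 10 members, as deposited (black) and after median-of-ratios scaling (orange); filled symbols have an adjusted p under 0.05 and dotted lines mark the median of all tested genes. Lonp1 lies to the right of both medians, Clpx to the left, and Afg3l2 and Hspe1 near them.

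Per length, the order of mean levels over the 6 libraries was Hspa9, Hspd1, Afg3l2, Lonp1, Hspe1, Clpp, Clpx, Spg7, Yme1l1 and Htra2, between 143 and 2.32 FPKM. Hspa9 was above Hspd1 in every library. Afg3l2 and Lonp1 overlapped in libraries labelled PKI, at 37.5 to 39.9 and 39.0 to 39.9 FPKM. In WT, Afg3l2 was above Lonp1 in every library, at 30.8 to 35.6 and 26.4 to 28.5 FPKM. Lonp1 and Hspe1 were apart in libraries labelled PKI, with Hspe1 at most 33.3 FPKM, and nearer in WT, with Hspe1 at most 25.8 FPKM.

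The 10 members together summed to 407, 417 and 416 FPKM in libraries labelled PKI, against 395, 368 and 379 FPKM in WT. After scaling the sums were 367, 371 and 380 in libraries labelled PKI, against 432, 410 and 425 in WT. The groups do not overlap in either case, and their order turns with the scaling. The share of a member in this sum does not depend on the scaling. Lonp1 made up 9.59%, 9.46% and 9.59% of the sum in libraries labelled PKI, against 6.99%, 7.18% and 7.54% in WT. It was the only member of the 10 whose shares did not overlap between the groups. The shares were not tested and have no counterpart over all genes. An exact permutation test of 3 against 3 cannot go below p = 0.1. Clpx made up 3.82% ± 0.421 in libraries labelled PKI and 4.62% ± 0.338 in WT (SD, n = 3 each), and PKI replicate 2 lay within the WT range. As deposited, values did not overlap and were higher in 3 of 10 members, against 51.3% of all tested genes, and were lower in 0, against 4.53%. After scaling 1 member was higher without overlap, against 16.6%, and 5 were lower, against 20.7%.

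Ratios of partner genes within a library are likewise free of the scaling, and 5 were compared. Hspd1 over Hspe1 was 2.80, 3.62 and 3.18 in libraries labelled PKI, against 4.20, 3.69 and 3.76 in WT. The ratio was lower in all 3 libraries labelled PKI, although PKI replicate 2 came close to WT replicate 2. The log2 difference was −0.28 (exact two-sided permutation p = 0.1, the smallest that 3 against 3 allows, and 0.25 adjusted over the 5 ratios), and −0.19 without PKI replicate 1. Afg3l2 over Spg7 was 3.67, 3.36 and 3.22 in libraries labelled PKI, against 2.75, 3.21 and 2.52 in WT. These groups touched at PKI replicate 3 and WT replicate 2 without overlapping. The log2 difference was 0.28 (exact two-sided permutation p = 0.1, adjusted 0.25), between 0.20 and 0.37 when a library was left out. A p of 0.1 does not pass the threshold, so neither ratio is shown to differ.

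**Figure D3:**
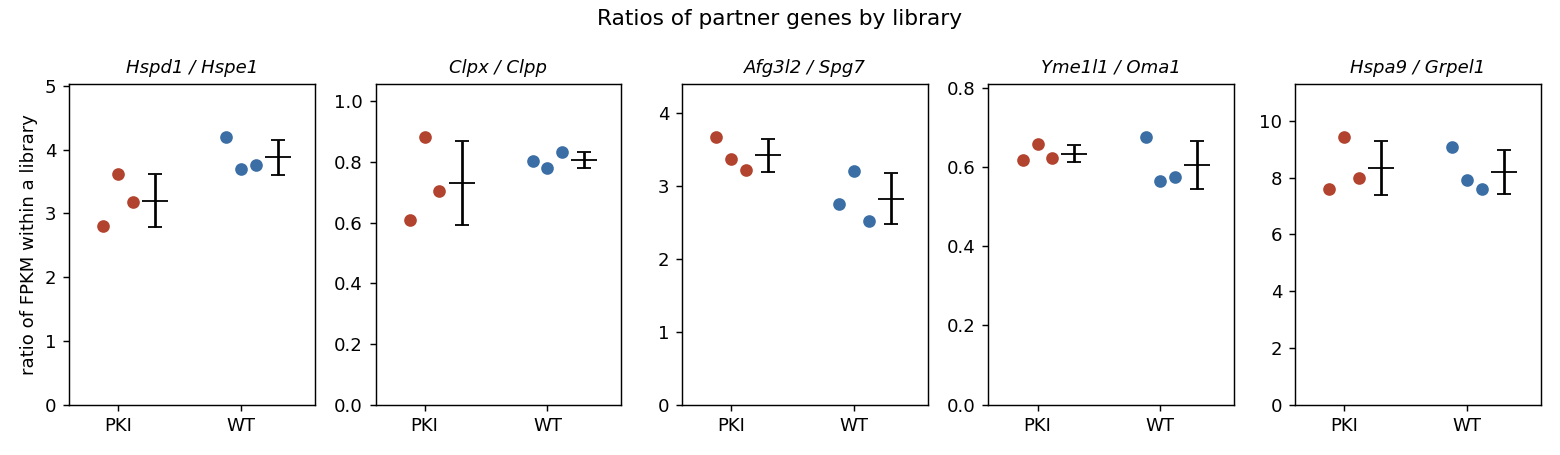
Ratio of FPKM of partner genes within each library (vertical axis, from 0) for 5 pairs, in libraries labelled PKI (red) and WT (blue); the bar beside the points is the mean with 1 SD. The points of Hspd1 over Hspe1 and of Afg3l2 over Spg7 do not overlap between the groups, while those of the other 3 pairs do.

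Clpx over Clpp averaged 0.731 ± 0.139 in libraries labelled PKI and 0.806 ± 0.0271 in WT (SD, n = 3 each), with PKI replicate 2 the highest of the 6 libraries (exact permutation p = 0.4, adjusted 0.6). Yme1l1 over Oma1, a stress-activated protease of the same membrane, averaged 0.633 ± 0.0215 in libraries labelled PKI and 0.605 ± 0.0613 in WT (SD, n = 3 each; exact permutation p = 0.5, adjusted 0.6). Hspa9 over its nucleotide exchange factor Grpel1 averaged 8.34 ± 0.959 in libraries labelled PKI and 8.20 ± 0.778 in WT (SD, n = 3 each; exact permutation p = 0.6, adjusted 0.6). Clpx over Clpp showed the effect of single libraries most, with a log2 difference of −0.16 that was −0.03 without PKI replicate 1 and −0.30 without PKI replicate 2.

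Genes that work with the members are set against the same background of all tested genes. It was 36.4% higher and 2.96% lower as deposited, and 7.82% higher and 9.18% lower after scaling. As deposited, the log2 change of all tested genes had a first quartile of 0.071 and a median of 0.21, so most were positive. Of 10 co-chaperones and other mitochondrial chaperones, 1 was higher as deposited and 0 lower, and all 10 values were positive (median log2 change 0.14). After scaling, 2 were lower and 0 higher (median −0.14). The called gene was Dnlz, a helper of Hspa9, at 6.80 ± 0.892 FPKM in libraries labelled PKI and 5.23 ± 0.390 FPKM in WT (SD, n = 3 each; limma adjusted p = 0.0426). After scaling the log2 change of Dnlz was 0.06 (limma adjusted p = 0.733), so the call was lost. Hscb, a helper of Hspa9 in iron-sulfur cluster assembly, had a log2 change of 0.22 (limma adjusted p = 0.103) and Dnajc15 of 0.14 (0.115). The J-protein Dnaja3 and the disaggregase Clpb had the largest p, at 0.05 (limma adjusted p = 0.575) and 0.07 (0.568), and Dnaja3 was lower after scaling (−0.24, adjusted p = 0.0458).

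Among 15 tested genes of other mitochondrial proteases and peptidases, 1 was higher and 2 were lower (median log2 change 0.08), while after scaling 7 were lower and 0 higher (median −0.21). Immp2l, a subunit of the inner-membrane peptidase that trims signals from imported proteins, was at 1.02, 1.41 and 0.830 FPKM in libraries labelled PKI, against 3.03, 3.60 and 3.90 FPKM in WT. All libraries labelled PKI were far below all WT libraries, 3.23-fold in the mean (log2 change −1.12, SE 0.12, limma adjusted p = 0.00135), and also after scaling (−1.31). Immp1l, the other catalytic subunit of that peptidase, had a log2 change of −0.09 (limma adjusted p = 0.378) and was lower after scaling (−0.38, limma adjusted p = 0.0147). Uqcrc1, a core subunit of complex III related to the processing peptidases, fell by 0.29 on the log2 scale (limma adjusted p = 0.0148). Pmpcb, the catalytic subunit of the matrix processing peptidase, was higher by 0.22 (limma adjusted p = 0.0359), and turned to −0.06 after scaling. Uqcrc2 and Pitrm1 had the largest p (log2 change −0.05 and −0.03), and both were lower after scaling.

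The prohibitin ring holds the inner-membrane AAA proteases. Of 7 tested genes of this scaffold and its partners, 2 were higher. All 7 values were positive, with a median log2 change of 0.10 against 0.21 over all tested genes. After scaling, 0 passed the threshold, all 7 values were negative and the median was −0.16. Ghitm, an inner-membrane protein that binds Afg3l2, averaged 128 ± 4.52 FPKM in libraries labelled PKI and 105 ± 4.02 FPKM in WT (SD, n = 3 each; limma adjusted p = 0.00921). Phb was higher by 0.21 on the log2 scale (limma adjusted p = 0.0389), while Phb2 was at 0.10, Atad3a at 0.09 and Bcs1l at 0.07, uncalled. Ghitm and Phb both turned to slightly negative values after scaling (−0.01 and −0.08).

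Known substrates of the member proteases moved both ways at the RNA level, 3 higher and 1 lower of 10 (median log2 change −0.05). After scaling, 1 was higher and 4 were lower (median −0.32). Prelid1, a lipid transfer protein cut by Yme1l1 in human cells, was at 10.4, 7.69 and 8.85 FPKM in libraries labelled PKI, against 5.35, 4.90 and 4.37 FPKM in WT. Every library labelled PKI was above every WT library (log2 change 0.76, limma adjusted p = 0.00397, and 0.50 after scaling, adjusted p = 0.0255). Pink1, the mitophagy kinase that Lonp1 can degrade in human cells, was at 89.0, 88.5 and 86.5 FPKM in libraries labelled PKI, against 112, 130 and 129 FPKM in WT. It was lower throughout (log2 change −0.48, limma adjusted p = 0.00330, and −0.78 after scaling). Smdt1, a regulator of the calcium uniporter degraded by the Afg3l2 protease, was 1.26-fold higher (limma adjusted p = 0.00639), with 0.03 on the log2 scale after scaling. Opa1, the fusion protein processed by Yme1l1 and Oma1, had a log2 change of −0.04 (limma adjusted p = 0.625) and was lower after scaling (−0.32). Cox4i1 varied widely, between 203 and 400 FPKM in libraries labelled PKI and between 198 and 410 FPKM in WT.

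Of 8 tested regulators of the mitochondrial stress response, 5 were higher and 1 lower (median log2 change 0.41). After scaling, 2 were higher and 1 lower, with a median of 0.16. Atf5, a transcription factor that raises mitochondrial chaperone genes in mammalian cells, was at 15.6, 13.0 and 19.2 FPKM in libraries labelled PKI, against 8.86, 8.68 and 7.42 FPKM in WT. The lowest library labelled PKI was above the highest WT library (log2 change 0.85, SE 0.14, limma adjusted p = 0.00479). Atf4, the central factor of the integrated stress response, was at 34.4, 30.9 and 38.7 FPKM in libraries labelled PKI, against 21.1, 20.4 and 18.9 FPKM in WT. It too was apart in every library (log2 change 0.75, SE 0.09, limma adjusted p = 0.00196). Both were also higher after scaling, Atf5 by 0.58 (limma adjusted p = 0.0333) and Atf4 by 0.46 (limma adjusted p = 0.0187). The gene listed as 0610009O20Rik, which RefSeq names Dele1 and which relays mitochondrial stress to the kinase Eif2ak1, averaged 38.2 ± 0.809 FPKM in libraries labelled PKI and 48.5 ± 1.72 FPKM in WT (SD, n = 3 each; log2 change −0.34, limma adjusted p = 0.00549). Hsf1, the heat shock factor, and Ubl5 had the largest p, with log2 changes of 0.21 (limma adjusted p = 0.181) and −0.10 (0.602).

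**Figure D4:**
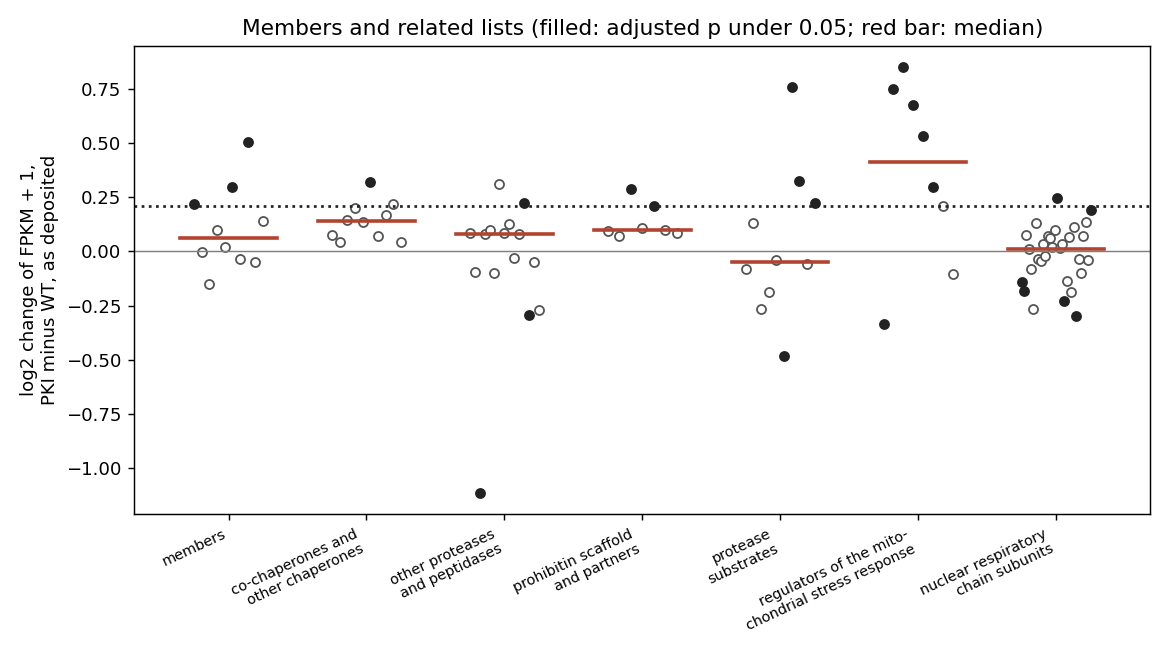
Log2 change of FPKM + 1 (PKI minus WT, as deposited, vertical axis) of each tested gene in the members and 6 related lists; filled points have an adjusted p under 0.05, red bars are list medians and the dotted line is the median of all tested genes. The regulators of the mitochondrial stress response have the highest median, 0.41, against 0.06 for the members.

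For the respiratory chain, which Lonp1 and the inner-membrane proteases help to maintain, 2 of 30 nuclear-encoded subunits were higher and 4 lower (median log2 change 0.01). After scaling, all 30 values were negative, 13 passed as lower and the median was −0.28. Sdha, the flavoprotein of complex II, averaged 197 ± 2.61 FPKM in libraries labelled PKI and 242 ± 6.95 FPKM in WT (SD, n = 3 each; limma adjusted p = 0.00470). Atp5b, the catalytic subunit of ATP synthase, fell by 0.18 on the log2 scale (limma adjusted p = 0.0172), and Ndufb3 of complex I was higher by 0.25 (0.0152), −0.05 after scaling. Ndufb5 and Atp5d had the largest p, both with a log2 change within 0.02 of 0.

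The genes whose profile over the 6 libraries was most like that of Lonp1 were Ggta1, Cst3, Ccl9, Smurf2 and Exoc4, with Pearson r of 0.9996, 0.9978, 0.9975, 0.9975 and 0.9972 on log2(FPKM + 1). All 6 libraries share this displacement between the groups, and 2324 of the 8951 genes compared had an r of at least 0.9. Cst3, a secreted protease inhibitor, averaged 250 ± 2.61 FPKM in libraries labelled PKI and 153 ± 6.52 FPKM in WT (SD, n = 3 each).

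Markers of other cell types moved between the same groups. In bulk tissue, fewer cells of a type and less RNA per cell cannot be told apart. Against 36.4% of all tested genes as deposited, fibroblast markers were higher in 8 of 10 (median log2 change 1.51, and 8 higher after scaling), with a summed level of 493 to 554 FPKM in libraries labelled PKI and 253 to 379 FPKM in WT. Of 9 tested macrophage markers 8 were higher (median 1.10, and 7 higher after scaling), with sums over 10 markers of 213 to 231 FPKM in libraries labelled PKI and 71.4 to 110 FPKM in WT. Cardiomyocyte markers, which define the labelled tissue, were strongly expressed, with sums of 5994 to 6430 FPKM in libraries labelled PKI and 6245 to 6635 FPKM in WT, and 2 of 10 higher and 3 lower (median −0.0015). After scaling, 7 cardiomyocyte markers were lower and 0 higher (median −0.30), against 9.18% and 7.82% of all tested genes. Endothelial markers were higher in 3 of 10, below the share of all genes, with sums of 144 to 162 FPKM in libraries labelled PKI and 133 to 140 FPKM in WT. After scaling, 0 endothelial markers were higher and 1 was lower (median −0.042). Smooth muscle and pericyte markers were higher in 4 of 8, with sums of 189 to 227 FPKM in libraries labelled PKI and 125 to 154 FPKM in WT, and after scaling 1 was higher and 1 lower. All 5 tested red blood cell markers were lower, also after scaling, with sums over 6 markers of 274 to 338 FPKM in libraries labelled PKI and 380 to 538 FPKM in WT. Mfap5, C1qa, Pecam1, Acta2, Mybpc3 and Hbb-bt had the smallest p of their lists, with log2 changes of 2.08, 1.28, 0.23, 1.13, 0.41 and −0.68. After scaling, Pecam1 turned to −0.044 and Mybpc3 was at 0.12, both uncalled, and the other 4 kept their direction and their call. Of all these markers, 1 red blood cell gene, too low to be tested, was at 0 in at least 1 library. The part of these markers in the member values was not tested.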

How the data were processed

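The authors deposited FPKM per gene and library, as the tables are named. Trizol RNA of flash-frozen tissue went into TruSeq libraries, per the labels' protocols, a kit that does not mark strand. CASAVA, Bowtie 0.12.2 and build mm9 are named in the submitters' processing notes. What program, annotation and filters made the FPKM is not given in the sources used here. Both gene tables held identical values, and the one with symbols was used. FPKM are not counts, so depth is unknown, no counting interval is given and the number of libraries limits the precision.

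Sample titles gave the groups. Genes averaging 1 FPKM or more over the 6 libraries were fitted on log2(FPKM + 1) with limma 3.58.1 (R 4.3.3), two-sided, with a variance trend and no block, and p-values were adjusted over all 9907 genes by Benjamini-Hochberg. On the log2(FPKM + 1) scale a low gene's change is understated. Folds divide mean FPKM. The fit was run on simulated data that held no shift between libraries. That setting differs from these data, so the simulation cannot speak to the effect of the scaling. Partner ratios and Ppargc1a were compared by exact permutation. Promoter windows are from RefSeq (GRCm38.p6) and gene positions from GENCODE M21, with no coordinates converted. The genes named were the members, Ppargc1a, the partner genes, the 3 smallest and 2 largest p of each related list, the smallest p of each marker list and the 5 genes, other than predicted ones, most like Lonp1. Immp1l was chosen after its values were seen, as were the levels set side by side for the members. The members, lists and tests were chosen with earlier results of these data known. Adding pseudogene values and the fits leaving out libraries after scaling were chosen after seeing the data.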

Additional observations from a re-analysis of the deposited data

How the results depend on the processing

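Lonp1 was positive and called under all 17 alternatives to the values as deposited (log2 change 0.21 to 0.53), and Hspe1 was positive under all 17 and called under 9. These change 1 setting at a time. After median-of-ratios scaling the Lonp1 call was lost without any 1 library (limma adjusted p from 0.0713 to 0.156). It was also lost there with the replicate number as a block (0.106). The count of 3902 called genes became 1684 after median-of-ratios scaling, 1622 when scaled to the nuclear total (1019 higher, 603 lower), 1515 with quantile normalisation (753 higher, 762 lower) and 2344 to 3425 when a library was left out (lowest without WT replicate 3, then 2498 without PKI replicate 3). At a minimum mean of 5 FPKM, 1925 of 3935 tested genes were called, against 3902 of 9907, so that lower count comes with a smaller set of tested genes. The count of 3 called members became 1 without a filter and 1 to 3 when a library was left out (1 without PKI replicate 1, PKI replicate 3 or WT replicate 2). With nuclear total and with quantile scaling it became 2, Lonp1 higher and Clpx lower (limma adjusted p of Clpx 0.0456 and 0.0265). After scaling, 1684 genes and 3 members became 865 to 1613 genes and 0 to 1 member when a library was left out (865 genes without WT replicate 3, 867 without PKI replicate 3 and 1067 without PKI replicate 1). Hspd1 turned to −0.27, −0.19 and −0.15 with median-of-ratios, nuclear total and quantile scaling, Hspa9 to −0.20, −0.11 and −0.090, and Yme1l1 to −0.11, −0.040 and −0.10. Hspa9 was called only with median-of-ratios scaling (limma adjusted p = 0.0447), not with nuclear total (0.239) or quantile scaling (0.347). Afg3l2 turned to −0.072 and −0.026 with median-of-ratios and quantile scaling. These turns follow from the direction of the scaling. When a library was left out, changes near 0 crossed it: Hspd1 (−0.046 to 0.10), Clpp (−0.073 to 0.044), Htra2 (−0.18 to 0.13), Spg7 (−0.13 to 0.066), the ratio of Hspa9 over Grpel1 (−0.069 to 0.10) and, after scaling, Hspe1 (−0.046 to 0.093); the cause was not tested. With the replicate number as a block, 2849 genes and 2 members were called as deposited, without Afg3l2 (limma adjusted p = 0.0942), and 1085 genes and 1 member, Clpx, after scaling. Same-numbered libraries did not deviate together (correlations −0.104, 0.00115 and 0.0529), so the numbers are not taken as pairs. Pseudogene values added changed no call. Of the 5 partner ratios, 0 passed with or without a pseudocount, and an exact permutation test of 3 against 3 cannot go below p = 0.1. Unknown depth leaves the precision of low genes such as Htra2 unstated.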
